A study of Mus musculus with 9 samples.

Results

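The genes described here are 10 transcriptional targets of the integrated stress response, chosen by symbol and matched to the gene names of the deposited tables: Atf4, Atf5, Ddit3, Cebpg, Trib3, Ppp1r15a, Chac1, Ddit4, Nupr1 and Gdf15. They are 10 of the 54532 genes in the tables. The question was whether the lack of lysine raises, at the level of mRNA, the genes that cells switch on when an amino acid runs short.

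RNA was sequenced from 3T3-L1, a mouse fibroblast line that turns into lipid-filled adipocytes when it is given a hormonal medium. The Undifferentiated group was confluent cells in calf serum that had been at confluence for 3 days and received no differentiation medium. The Differentiated group received the differentiation medium, which held 1 μM dexamethasone (a glucocorticoid), IBMX at 0.5 mM (isobutylmethylxanthine, an inhibitor of phosphodiesterases that raises cyclic AMP), 1 μM rosiglitazone (a PPARγ agonist) and 10 μg/mL insulin, with lysine and arginine added to a basal medium that lacks both, and fetal serum. The Lysfree group received the same medium with the same 4 agents and arginine but without the lysine, so that by the study's methods Lysfree and Differentiated differed in added lysine alone, while both differed from Undifferentiated in the hormones, the serum and the basal medium. The methods do not give the day on which Undifferentiated cells were collected, so time in culture may have differed as well. The paper reports a little lysine in the lysine-free medium at the start. In pooled samples after culture, it also reports that many other amino acids differed between the media of Lysfree and Differentiated. By the paper, RNA was collected after the differentiation period, which it gives as 3 days, so an early response was not sampled. Each group had 3 libraries of poly A RNA, and a single cell line stood behind all 9. The labels do not say whether the 3 libraries of a group came from separate cultures, so the spread between these libraries may be technical. The p-values rest on this spread as the fit pools it over genes, not on the libraries of 1 gene alone.

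The integrated stress response starts at kinases that phosphorylate the translation factor eIF2. The kinase GCN2, the product of Eif2ak4, senses uncharged tRNA and is the one that answers to a missing amino acid. Phosphorylated eIF2 slows protein synthesis in general but lets the mRNA of ATF4 be translated, so that ATF4 is controlled largely by translation and the level of its mRNA does not report the level of the protein. ATF4 in turn binds, with C/EBP partners, to composite C/EBP-ATF sites of genes for amino acid transport, amino acid synthesis and tRNA charging, and of stress genes such as Ddit3 and Trib3.

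Total counts ranged from 15880144 to 21806693 per library, and every one of the 10 genes had a count in all 9 libraries, from 72 counts for Gdf15 in Undifferentiated 3 to 14216 for Atf5 in Undifferentiated 2. Levels are given as FPKM, fragments scaled to gene length and library total, as the authors deposited them, and changes as log2 fold changes with their standard error (SE) from edgeR's quasi-likelihood test on the deposited counts, with Benjamini-Hochberg adjustment over all genes tested. A gene is said to rise or fall where its adjusted p was under 0.05, and it is called a differentially expressed gene (DEG) where the change was also at least 2-fold. All comparisons share libraries with each other, so they are not independent. An exact permutation test of 1 gene cannot give a p below 0.1 with 3 libraries against 3.

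The library Lysfree 1 stood apart from its group. Its chi-square distance to Lysfree 2 and Lysfree 3 was 43.3 and 44.4 per degree of freedom, against 2.76 between the latter pair and 2.97 to 12.3 within the other groups, and 595 of 12710 genes lay at least 2-fold from the mean of its group mates there, against 84 to 198 in the other libraries. Mitochondrially encoded genes took 1.60% of its counts, against 0.879% and 0.906% in Lysfree 2 and Lysfree 3. Relative to its group, the median deviation on the log2 scale was -0.28 for genes under 1500 bases and 0.10 for genes of at least 4000 bases. In Lysfree 1, 9 of the 10 stress genes lay below both of its group mates, and only Cebpg lay above them. The part of this library in the changes below was not tested, and the Lysfree changes of the 10 genes are given with and without it. The DEGs of other lists named below for Lysfree vs Differentiated kept their direction and their call there without it.

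Labels were compared with marker genes. The summed level of 10 adipocyte markers ranged from 370 to 488 FPKM in Undifferentiated, from 6678 to 6986 in Differentiated and from 240 to 316 in Lysfree, and that of 9 preadipocyte and fibroblast markers from 4145 to 4476, from 1093 to 1097 and from 1902 to 2002. None of these markers was at 0 in every library, but the adipocyte marker Slc2a4 had 0 counts in Lysfree 1 and in Lysfree 2. In Differentiated vs Undifferentiated 9 adipocyte markers rose as DEGs and 7 of the preadipocyte markers fell. Of all genes tested, 21.8% were DEGs there and 18.7% in Lysfree vs Differentiated. All 10 adipocyte markers were DEGs that fell in Lysfree vs Differentiated, among them Adipoq, which encodes adiponectin, at a log2 fold change of -7.74 and Fabp4, a fatty acid carrier, at -5.99. Of the preadipocyte markers, 5 of 9 were DEGs that rose and 0 that fell, led by Ly6a at 2.52, Pdgfrb at 1.90, Thy1 at 1.74 and Dlk1 at 1.17. In bulk libraries such as these, fewer cells of a type cannot be told apart from less RNA per cell. Markers of other cell types were scarce: the sums ranged from 3.91 to 16.2 FPKM for 6 macrophage markers, of which 2 were at 0 in every library, from 0.0447 to 0.474 for 5 endothelial markers and from 0.0327 to 2.03 for 5 epithelial markers, with 1 of each of these lists at 0 in every library. In Lysfree vs Differentiated the DEGs among them were Lyz2, a macrophage marker that rose by 2.36, Vwf, an endothelial marker that rose by 4.88 to 0.325 ± 0.0499 FPKM (SD, n = 3), and 3 epithelial markers that fell.

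**Figure D1:**
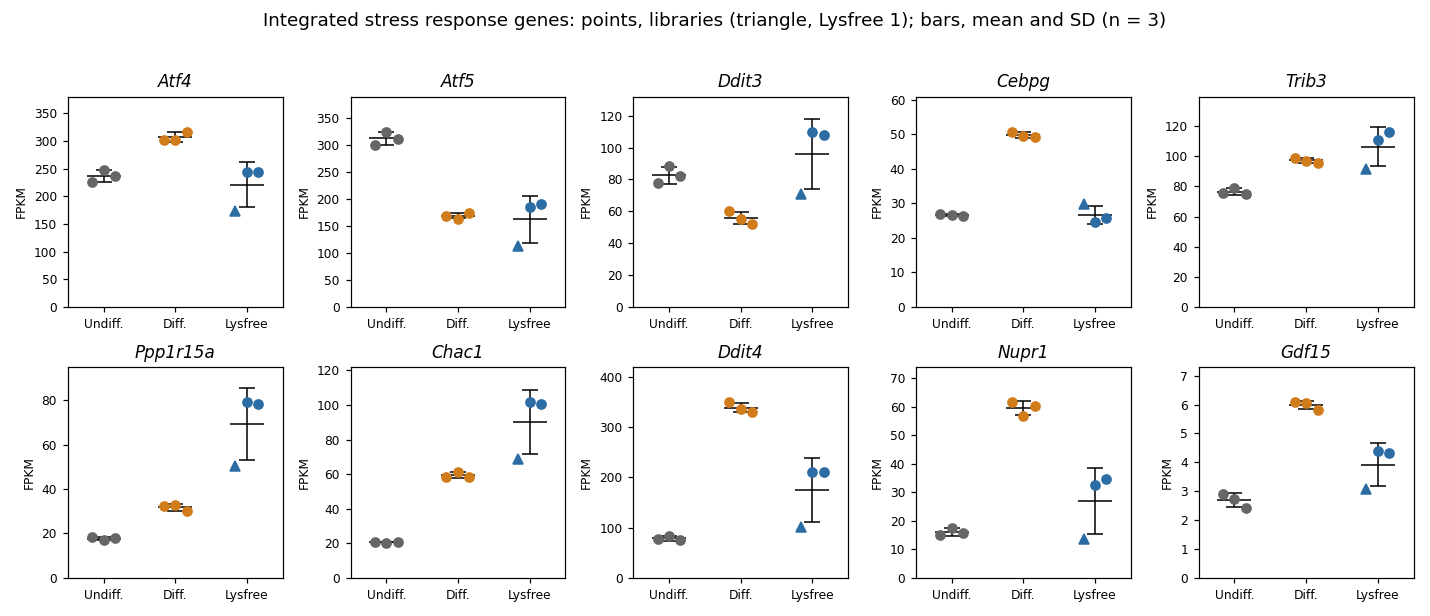
FPKM (linear axis from 0) of the 10 integrated stress response genes in the Undifferentiated, Differentiated and Lysfree groups; points are libraries, the triangle is Lysfree 1, and bars give the mean and SD of n = 3. Atf4, Ddit4, Nupr1, Gdf15 and Cebpg had their highest mean in Differentiated, Ddit3, Trib3, Chac1 and Ppp1r15a in Lysfree, and Atf5 in Undifferentiated.

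The 4 transcription factors of the set did not move together. Atf4 (chromosome 15, 80255184 to 80257541, mm10), the factor at the head of the pathway, was at 226, 247 and 237 FPKM in Undifferentiated, at 302, 302 and 317 in Differentiated and at 174, 244 and 244 in Lysfree. The Differentiated libraries lay above all others, and those of Lysfree and Undifferentiated overlapped. Atf4 rose in Differentiated vs Undifferentiated by a log2 fold change of 0.35 (SE 0.05, edgeR adjusted p = 3.0e-12) and fell in Lysfree vs Differentiated, with a log2 fold change of -0.41 (SE 0.11, edgeR adjusted p = 0.0037), or -0.28 without Lysfree 1. Against Undifferentiated its change in Lysfree was -0.05 (SE 0.11, edgeR adjusted p = 0.75), and 0.07 without Lysfree 1, neither of which passed the test. The mRNA of Atf4 was lower without lysine than in the same medium with it.

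Atf5 (chromosome 7, 44812256 to 44816658), a relative of Atf4 whose mRNA is likewise controlled in translation, was at 301, 325 and 312 FPKM in Undifferentiated, at 169, 164 and 173 in Differentiated and at 112, 184 and 191 in Lysfree. Both groups in differentiation medium lay below Undifferentiated. It fell in Differentiated vs Undifferentiated, with a log2 fold change of -0.92 (SE 0.05, edgeR adjusted p = 1.0e-72), and in Lysfree vs Undifferentiated, with -0.90 (SE 0.13, edgeR adjusted p = 5.5e-07), or -0.72 without Lysfree 1. Between Lysfree and Differentiated the groups overlapped, the log2 fold change was 0.01 (SE 0.14, edgeR adjusted p = 0.97), and without Lysfree 1 it was 0.20 (edgeR adjusted p = 2.2e-06).

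Ddit3 (chromosome 10, 127290774 to 127296288) encodes CHOP, a C/EBP-family factor that ATF4 induces and that inhibits the adipogenic C/EBPs. Its level was 77.6, 88.1 and 82.0 FPKM in Undifferentiated, 60.0, 55.2 and 52.1 in Differentiated and 71.0, 110 and 108 in Lysfree. The Differentiated libraries were the lowest, and Lysfree 1 lay below all Undifferentiated libraries while Lysfree 2 and 3 lay above them. Ddit3 fell in Differentiated vs Undifferentiated, with a log2 fold change of -0.59 (SE 0.06, edgeR adjusted p = 3.6e-23), and rose in Lysfree vs Differentiated by 0.85 (SE 0.13, edgeR adjusted p = 1.4e-05), a 1.81-fold change that missed the 2-fold limit. Without Lysfree 1 the rise was 1.01 and Ddit3 was a DEG. In Lysfree vs Undifferentiated the change was 0.27 (SE 0.12, edgeR adjusted p = 0.089), which did not pass the test, and without Lysfree 1 it was 0.42 (edgeR adjusted p = 3.3e-11).

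Cebpg (chromosome 7, 35046422 to 35056573), a small C/EBP that pairs with ATF4, was at 26.9, 26.5 and 26.3 FPKM in Undifferentiated, at 50.8, 49.6 and 49.1 in Differentiated and at 29.7, 24.7 and 25.6 in Lysfree. Lysfree 1 lay above all Undifferentiated libraries and Lysfree 2 and 3 below them, and the Differentiated libraries were apart from both groups. The rise in Differentiated vs Undifferentiated was 0.88 on the log2 scale (SE 0.05, edgeR adjusted p = 7.9e-58), and Cebpg fell in Lysfree vs Differentiated, with -0.84 (SE 0.09, edgeR adjusted p = 1.2e-07) and -0.94 without Lysfree 1. In Lysfree vs Undifferentiated it changed by 0.05 (SE 0.10, edgeR adjusted p = 0.70), or -0.05 without Lysfree 1, with neither value past the test.

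The 2 genes that feed back on the pathway were both highest in Lysfree, though only 1 of them rose against Differentiated. Ppp1r15a (chromosome 7, 45522916 to 45526268) encodes GADD34, the subunit that brings protein phosphatase 1 to phosphorylated eIF2 and so restores translation. It was at 18.2, 16.8 and 18.1 FPKM in Undifferentiated, at 32.5, 33.0 and 29.9 in Differentiated and at 50.5, 79.1 and 78.4 in Lysfree, with no overlap between any groups. Ppp1r15a rose at both steps, by 0.82 (SE 0.07, edgeR adjusted p = 1.2e-34) in Differentiated vs Undifferentiated and by 1.19 (SE 0.13, edgeR adjusted p = 1.7e-07), a 2.28-fold change, in Lysfree vs Differentiated. The total change in Lysfree vs Undifferentiated was 2.02 (SE 0.13, edgeR adjusted p = 1.3e-14), or 4.05-fold. Without Lysfree 1 these Lysfree values were 1.35 and 2.17.

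Trib3 (chromosome 2, 152337422 to 152344032) encodes a pseudokinase that ATF4 and CHOP induce and that dampens ATF4 activity and AKT signalling. Its levels of 75.5, 79.0 and 74.7 FPKM in Undifferentiated lay below the 99.1, 97.1 and 95.7 of Differentiated and the 91.6, 111 and 116 of Lysfree. It rose by 0.32 (SE 0.05, edgeR adjusted p = 1.8e-08) in Differentiated vs Undifferentiated and by 0.53 (SE 0.10, edgeR adjusted p = 8.6e-05) in Lysfree vs Undifferentiated, where it was 0.60 without Lysfree 1. Lysfree and Differentiated overlapped through Lysfree 1, and the change of 0.19 between them (SE 0.10, edgeR adjusted p = 0.13) did not pass the test. It was 0.27 and passed without that library (edgeR adjusted p = 1.6e-09), and it also passed with all libraries when counts were scaled by library size alone, without TMM factors, likewise at 0.27 (edgeR adjusted p = 0.032).

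Of the 4 effector genes, Chac1 alone was highest in Lysfree. Chac1 (chromosome 2, 119351229 to 119354381) encodes an enzyme that degrades glutathione and is among the genes most closely tied to the ATF4 branch. Its 20.6, 20.4 and 20.6 FPKM in Undifferentiated compared with 58.6, 61.3 and 58.3 in Differentiated and 68.9, 101 and 101 in Lysfree, and the 3 groups did not overlap. Chac1 rose by 1.50 (SE 0.07, edgeR adjusted p = 4.1e-103), or 2.84-fold, in Differentiated vs Undifferentiated, and by a further 0.67 (SE 0.12, edgeR adjusted p = 1.0e-04), or 1.59-fold, in Lysfree vs Differentiated. Its 4.55-fold rise in Lysfree vs Undifferentiated, at 2.18 (SE 0.13, edgeR adjusted p = 9.4e-16), was the largest of the 10 genes in that comparison. Leaving out Lysfree 1 gave 0.81 and 2.32, so that the gene stayed under 2-fold against Differentiated.

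Ddit4 (chromosome 10, 59949669 to 59951834) encodes REDD1, an inhibitor of mTORC1 that ATF4, glucocorticoids and hypoxia each induce. It was at 76.6, 83.9 and 74.5 FPKM in Undifferentiated, at 349, 336 and 331 in Differentiated and at 101, 211 and 211 in Lysfree. The groups did not overlap, with Lysfree between the others and Lysfree 1 below both of its group mates. Ddit4 had the largest rise of the 10 genes in Differentiated vs Undifferentiated, 2.08 on the log2 scale (SE 0.05), or 4.24-fold, with an edgeR adjusted p below the smallest number that could be stored. It fell by 0.89 on the log2 scale (SE 0.17, edgeR adjusted p = 2.5e-04) in Lysfree vs Differentiated and was 2.30-fold above Undifferentiated in Lysfree, at 1.20 (SE 0.16, edgeR adjusted p = 1.2e-07). Without Lysfree 1 the same values were -0.64 and 1.45.

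Nupr1 (chromosome 7, 126623249 to 126630861), a small chromatin-associated stress protein, was at 15.1, 17.6 and 15.6 FPKM in Undifferentiated, at 61.5, 56.7 and 60.4 in Differentiated and at 13.7, 32.6 and 34.8 in Lysfree. All Lysfree libraries were below all Differentiated libraries, and Lysfree 1 was also below all Undifferentiated libraries. Nupr1 rose by 1.85 (SE 0.06, edgeR adjusted p = 1.8e-181), or 3.62-fold, in Differentiated vs Undifferentiated, and fell in Lysfree vs Differentiated, with -1.07 (SE 0.20, edgeR adjusted p = 2.0e-04). That fall was 2.10-fold with Lysfree 1, but without it the change was -0.77 and Nupr1 was no DEG. In Lysfree vs Undifferentiated the rise was 0.80 (SE 0.18, edgeR adjusted p = 6.2e-04), and it was 1.08, and a DEG, without Lysfree 1.

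Gdf15 (chromosome 8, 70629393 to 70632456), a secreted stress hormone of the TGF-beta family that limits food intake, had the lowest level of the 10 genes in every group. It was at 2.91, 2.73 and 2.43 FPKM in Undifferentiated, at 6.07, 6.06 and 5.82 in Differentiated and at 3.07, 4.39 and 4.31 in Lysfree. The groups did not overlap, with Lysfree in the middle. Gdf15 rose 2.17-fold in Differentiated vs Undifferentiated, at 1.12 (SE 0.15, edgeR adjusted p = 1.8e-13), and fell in Lysfree vs Differentiated, with -0.54 (SE 0.17, edgeR adjusted p = 0.013) and -0.41 without Lysfree 1. Against Undifferentiated it rose in Lysfree by 0.59 (SE 0.20, edgeR adjusted p = 0.018), or 0.71 without Lysfree 1. Its 72 to 209 counts per library were the fewest of the 10 genes.

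**Figure D2:**
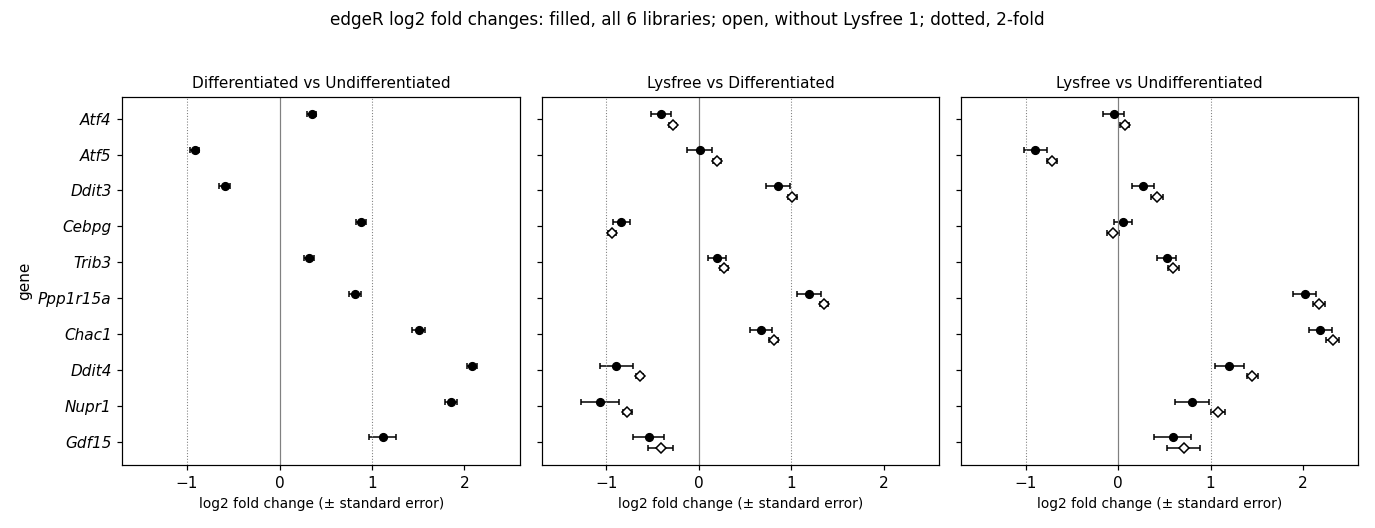
Log2 fold changes (± SE) of the 10 genes from edgeR in Differentiated vs Undifferentiated, Lysfree vs Differentiated and Lysfree vs Undifferentiated; filled points use all 6 libraries, open points leave out Lysfree 1, and dotted lines mark a 2-fold change. In Lysfree vs Differentiated the values spread to both sides of 0, from -1.07 for Nupr1 to 1.19 for Ppp1r15a.

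Counted over the set, the step from Undifferentiated to Differentiated was the larger one. In Differentiated vs Undifferentiated, 4 of the 10 genes were DEGs that rose (Chac1, Ddit4, Nupr1 and Gdf15) and 0 were DEGs that fell, where 21.8% of all genes tested were DEGs, 10.4% by a rise and 11.4% by a fall. At an adjusted p under 0.05 alone, 8 rose and 2 fell, against 23% and 23.2% of all genes. The same 8 and 2 lay apart between the groups in FPKM, against 26.2% upwards and 24.7% downwards of all genes. The median log2 fold change of the 10 was 0.85, beside 0.02 over all genes tested.

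In Lysfree vs Differentiated, the comparison in which the added lysine alone differed by design, 1 gene was a DEG that rose (Ppp1r15a) and 1 a DEG that fell (Nupr1), which at 2 of 10 was near the 18.7% of all genes tested (8.14% by a rise and 10.5% by a fall). By adjusted p alone 3 rose (Ddit3, Chac1 and Ppp1r15a) and 5 fell (Atf4, Ddit4, Nupr1, Gdf15 and Cebpg), while Trib3 and Atf5 did not pass, where 19.7% of all genes rose and 18.8% fell. The 3 and the 5 were also the genes whose groups did not overlap, against 21.3% upwards and 25.3% downwards of all genes. The median was -0.20, beside -0.06 over all genes tested. Without Lysfree 1 the median was -0.04, with 2 DEGs that rose (Ddit3 and Ppp1r15a) and 0 that fell. Among the genes past the test, those of the eIF2 phosphatase, CHOP and glutathione breakdown were higher without lysine, and Atf4 itself and its partner Cebpg were lower.

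In Lysfree vs Undifferentiated, 3 genes were DEGs that rose (Chac1, Ppp1r15a and Ddit4) and 0 fell as DEGs, though Atf5 was a DEG that fell without Lysfree 2 or without Lysfree 3, against 14.3% of all genes tested, 5.52% by a rise and 8.76% by a fall. By adjusted p alone 6 rose and Atf5 fell, against 18% and 17.1% of all genes. The groups of 5 genes lay apart upwards and those of Atf5 downwards, against 20.2% and 23.2% of all genes. The median was 0.56, beside -0.02 over all genes tested, and without Lysfree 1 it was 0.65 with 4 DEGs that rose. The share of DEGs was higher where a gene's mean reached 1 CPM (counts scaled to library size), at 31.2%, 27.1% and 20.5% in the 3 comparisons in the order given.

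The order of the genes by FPKM changed between groups. Undifferentiated cells had Atf5 first, with a mean of 313 ± 12.2 FPKM (SD, n = 3), then Atf4 with 237 ± 10.6, and these ranges were apart, whereas those of Ddit3, Ddit4 and Trib3 overlapped in turn. Ddit4 came first in Differentiated cells with 339 ± 9.39 FPKM, ahead of Atf4 with 307 ± 8.74 and Atf5 with 169 ± 4.81, all apart. In Lysfree cells Atf4 came first with 221 ± 40.6 FPKM, but from there down to Ppp1r15a, the seventh, with 69.3 ± 16.3, each gene's range overlapped that of the next. The low end of each of these ranges was Lysfree 1. Within each Lysfree library Atf4 was the highest, and Trib3, Ddit3, Chac1 and Ppp1r15a followed each other in this order. Chac1 went from 20.6 ± 0.123 FPKM in Undifferentiated to 59.4 ± 1.65 and 90.4 ± 18.6, and Ppp1r15a from 17.7 ± 0.766 to 31.8 ± 1.65 and 69.3 ± 16.3.

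The sequences just upstream of the genes were searched for the letters of known ATF sites, since Chac1 and Ppp1r15a rose in both Lysfree comparisons. The windows were the 250 bases before each annotated start in RefSeq (GRCm38.p6), 12 windows for the 10 genes, as Atf5 and Gdf15 have 2 starts. The core of the composite C/EBP-ATF site, TGATGNAA, was present on either strand in 2 of the 12 windows and in 3.45% of 32851 windows of all genes, its variant TGACGCAA in 1 and 0.438%, and the palindromic cyclic AMP response element TGACGTCA in 1 and 1.55%. The palindrome reads the same on both strands, and no match overlapped another in the 12 windows. The windows that held a match are printed 5′ to 3′ on the strand of the gene, with the matches in capitals, for Chac1 (chr2:119350992-119351241, plus strand), Nupr1 (chr7:126625471-126625720, minus strand) and Ppp1r15a (chr7:45526269-45526518, minus strand).
Chac1: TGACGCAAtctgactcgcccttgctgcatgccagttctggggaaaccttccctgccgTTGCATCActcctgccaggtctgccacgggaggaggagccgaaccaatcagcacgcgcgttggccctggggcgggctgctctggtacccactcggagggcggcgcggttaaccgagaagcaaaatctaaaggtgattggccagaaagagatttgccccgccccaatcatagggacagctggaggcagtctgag
Nupr1: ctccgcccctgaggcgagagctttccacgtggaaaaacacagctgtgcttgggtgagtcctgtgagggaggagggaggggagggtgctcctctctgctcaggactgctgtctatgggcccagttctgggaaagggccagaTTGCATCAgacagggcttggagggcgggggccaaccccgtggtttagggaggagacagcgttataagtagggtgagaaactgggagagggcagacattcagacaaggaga
Ppp1r15a: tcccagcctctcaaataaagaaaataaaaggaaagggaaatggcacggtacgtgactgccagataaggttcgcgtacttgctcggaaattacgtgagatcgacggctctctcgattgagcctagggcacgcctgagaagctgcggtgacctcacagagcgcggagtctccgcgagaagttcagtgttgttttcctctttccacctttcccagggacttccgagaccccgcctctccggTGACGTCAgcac
Chac1 held TGACGCAA at 250 and the reverse complement of the core, TTGCATCA, at 193 bases before its start. Nupr1 held the same TTGCATCA at 110 bases before its start, and Ppp1r15a the palindrome at 12 bases. The window of Nupr1 lies inside the span that the deposited table gives the gene, away from its outer end. Chac1 and Ppp1r15a rose in Lysfree vs Differentiated, while Nupr1 fell. The other 7 genes had none of these letters in the window, which says nothing of sites elsewhere, and a match describes the sequence only.

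The machinery upstream of Atf4 was given by 18 genes for the eIF2 kinases, eIF2, its exchange factor eIF2B and their partners. In Differentiated vs Undifferentiated 4 were DEGs that rose and 1 a DEG that fell, in Lysfree vs Differentiated the DEGs were 1 rise and 0 falls, and in Lysfree vs Undifferentiated 4 rises and 0 falls, with medians of 0.39, -0.01 and 0.36 on the log2 scale. Of all genes tested, 21.8%, 18.7% and 14.3% were DEGs in these comparisons in the same order. The 1 of 18 in Lysfree vs Differentiated was below that share. Eif2ak4, which encodes GCN2, was at 7.64, 6.73 and 7.37 FPKM in Undifferentiated, at 5.37, 5.41 and 5.01 in Differentiated and at 4.02, 3.80 and 3.58 in Lysfree, so that it was lowest without lysine. It fell at both steps, with log2 fold changes of -0.49 (SE 0.07, edgeR adjusted p = 2.6e-10) in Differentiated vs Undifferentiated and -0.41 (SE 0.11, edgeR adjusted p = 0.0048) in Lysfree vs Differentiated, or -0.47 without Lysfree 1, without reaching 2-fold. Eif2s1, the alpha subunit of eIF2 that the kinases phosphorylate, moved the other way, from 19.8, 19.0 and 16.9 FPKM in Undifferentiated to 41.2, 38.0 and 42.2 in Differentiated and 71.9, 59.3 and 59.3 in Lysfree. Its rise was 1.09 in Differentiated vs Undifferentiated (SE 0.06, edgeR adjusted p = 1.8e-80) and 0.71 in Lysfree vs Differentiated (SE 0.09, edgeR adjusted p = 1.7e-06), or 0.60 without Lysfree 1. Impact, an inhibitor of GCN2 activation, was the 1 DEG of this list in Lysfree vs Differentiated, at 33.1, 32.3 and 32.8 FPKM in Undifferentiated, 9.79, 9.15 and 9.36 in Differentiated and 27.2, 19.5 and 20.8 in Lysfree, a rise of 1.32 (SE 0.12, edgeR adjusted p = 8.9e-09) against Differentiated and 1.14 without Lysfree 1.

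**Figure D3:**
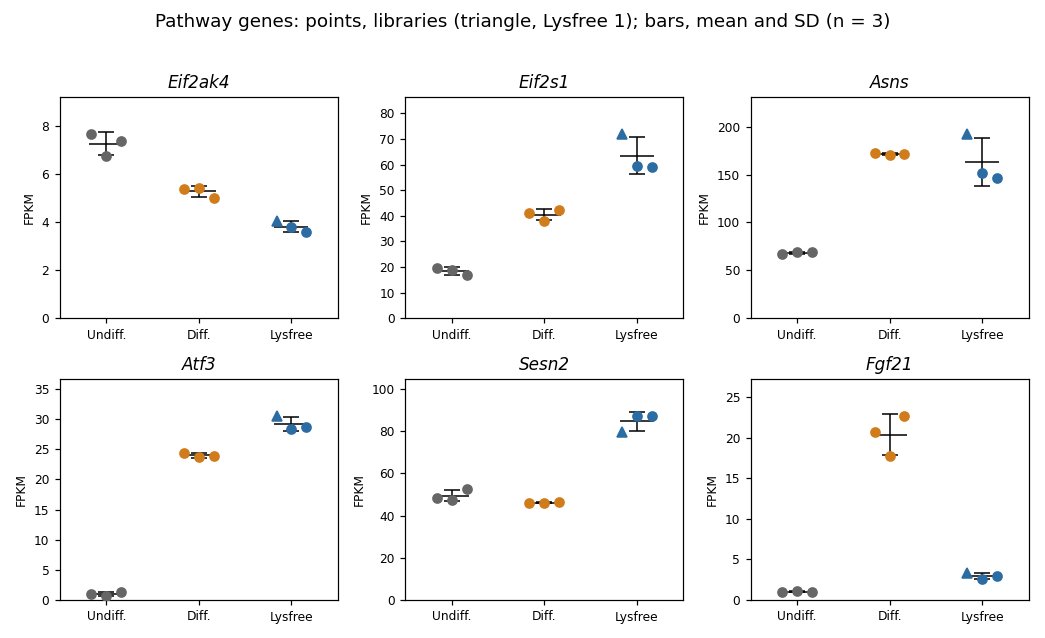
FPKM (linear axis from 0) of Eif2ak4, Eif2s1, Asns, Atf3, Sesn2 and Fgf21 in the 3 groups; points are libraries, the triangle is Lysfree 1, and bars give the mean and SD of n = 3. Eif2ak4 was lowest and Eif2s1, Atf3 and Sesn2 were highest in Lysfree, Asns overlapped between Differentiated and Lysfree, and Fgf21 was highest in Differentiated.

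The amino acid arm of ATF4, its targets in amino acid synthesis, transport and tRNA charging, numbered 36 genes, of which 35 had a count and were tested. In Differentiated vs Undifferentiated 12 were DEGs that rose and 0 that fell (median 0.65), in Lysfree vs Differentiated the DEGs were 6 rises and 1 fall (median 0.26), and in Lysfree vs Undifferentiated 20 rises and 1 fall (median 1.18). Without Lysfree 1 the last 2 comparisons had 5 and 1 (median 0.16), and 19 and 1 (median 1.09). Over all genes tested, 10.4% rose and 11.4% fell as DEGs in Differentiated vs Undifferentiated. The shares were 8.14% and 10.5% in Lysfree vs Differentiated, and 5.52% and 8.76% in Lysfree vs Undifferentiated. In Lysfree vs Differentiated the 6 rises and 1 fall of the 35 genes were together near the 18.7% of all genes. Asns, asparagine synthetase and the classical amino acid response gene, was at 67.4, 69.1 and 68.7 FPKM in Undifferentiated, at 173, 171 and 171 in Differentiated and at 192, 152 and 146 in Lysfree. It rose in differentiation medium with or without lysine, by 1.30 in each comparison with Undifferentiated (SE 0.05 with lysine and 0.10 without), whereas Lysfree and Differentiated overlapped, with a change of -0.01 (SE 0.09, edgeR adjusted p = 0.97). Without Lysfree 1 that change was -0.16 (edgeR adjusted p = 1.2e-04).

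The DEGs of this arm with the largest changes in Lysfree vs Differentiated are named next. Slc6a9, a glycine transporter, was at 4.97 ± 0.273 FPKM in Differentiated and 14.5 ± 0.838 in Lysfree (SD, n = 3), a rise of 1.61 (SE 0.11, edgeR adjusted p = 5.8e-11). Aldh1l2, a mitochondrial folate enzyme, rose by 1.51 (SE 0.08, edgeR adjusted p = 3.7e-12), and Slc1a4, a transporter of neutral amino acids, by 1.35 (SE 0.09, edgeR adjusted p = 1.8e-10), and without Lysfree 1 the 3 rises were 1.60, 1.46 and 1.26. Each of these 3 had fallen in Differentiated vs Undifferentiated, by less than 2-fold. The 1 DEG that fell was Slc7a3, a transporter of cationic amino acids such as lysine, at 0.422 ± 0.0546 FPKM in Differentiated and 0.107 ± 0.0760 in Lysfree, with a log2 fold change of -1.89 (-1.80 without Lysfree 1), a level at which few reads stood behind the value.

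Among 13 other targets of ATF4 and CHOP, 4 rose and 2 fell as DEGs in Differentiated vs Undifferentiated (median 0.12), 2 and 2 in Lysfree vs Differentiated (median 0.48) and 5 and 1 in Lysfree vs Undifferentiated (median 0.86). The shares of DEGs over all genes tested were 21.8%, 18.7% and 14.3% in the same order. Atf3, a repressor induced by many stresses, went from 0.915, 0.614 and 1.25 FPKM in Undifferentiated to 24.4, 23.7 and 23.9 in Differentiated and 30.6, 28.4 and 28.6 in Lysfree. It rose by 4.71 (SE 0.12) in Differentiated vs Undifferentiated and by 0.35 (SE 0.10, edgeR adjusted p = 0.0061) in Lysfree vs Differentiated, or 0.29 without Lysfree 1. Sesn2, which encodes the leucine-binding mTORC1 inhibitor sestrin 2, was near 49.5 ± 2.81 FPKM in Undifferentiated and 46.0 ± 0.196 in Differentiated but at 79.6, 87.4 and 87.1 in Lysfree, a rise of 0.94 against Differentiated (SE 0.09, edgeR adjusted p = 9.6e-09), or 0.97 without Lysfree 1. Fgf21, a secreted metabolic hormone that is a target of both ATF4 and PPARs, was at 20.7, 17.7 and 22.7 FPKM in Differentiated but at 3.29, 2.54 and 2.98 in Lysfree and 0.987, 1.10 and 0.919 in Undifferentiated, and fell in Lysfree vs Differentiated, with -2.73 (SE 0.17, edgeR adjusted p = 2.9e-11), or -2.83 without Lysfree 1. The other DEGs of this list in that comparison were Jdp2, an AP-1 family repressor that rose by 2.11, Stc2, a secreted glycoprotein that rose by 1.90, and Ero1l, an oxidase of the endoplasmic reticulum that fell with -1.05, at 2.33, 1.94 and -1.23 without Lysfree 1. Mean levels of Jdp2 in Undifferentiated, Differentiated and Lysfree were 66.5, 15.7 and 64.7 FPKM, so Lysfree was near Undifferentiated, though its libraries spread (41.5, 73.9 and 78.8). In the same order the means were 1.06, 0.852 and 3.04 FPKM for Stc2 and 63.8, 431 and 200 for Ero1l.

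**Figure D4:**
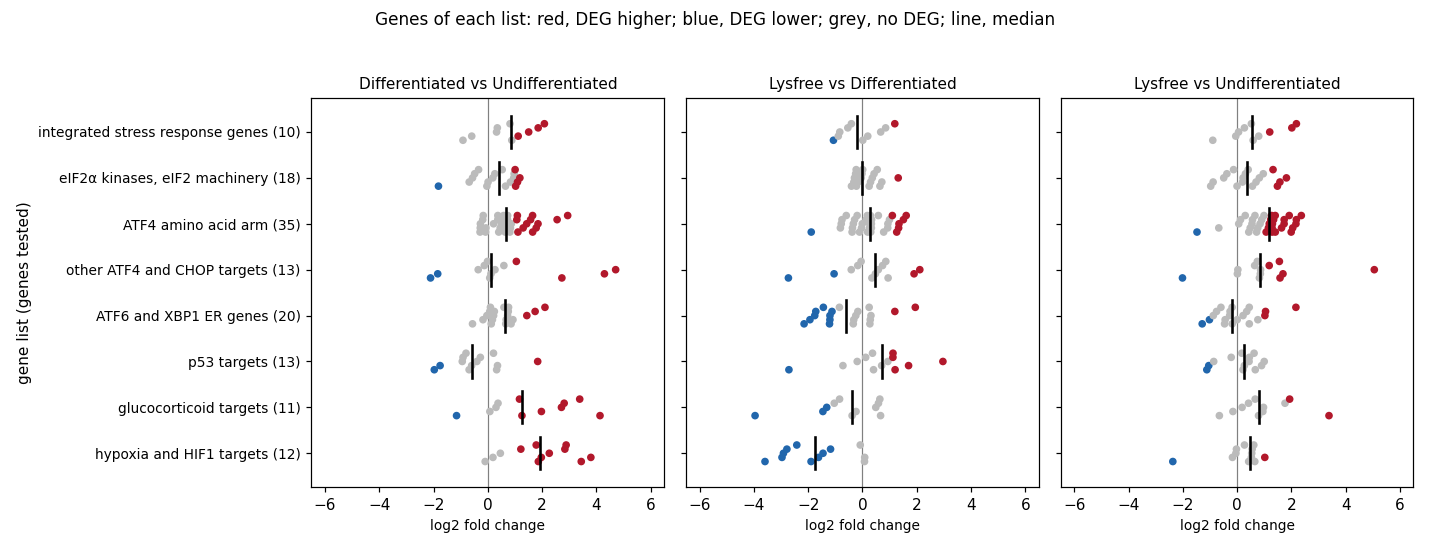
Log2 fold changes of each gene in 8 lists in the 3 comparisons; a point is a gene, red marks DEGs that rose, blue DEGs that fell, grey all others, and the black line is the median of the list. The amino acid arm has its median at 0.65, 0.26 and 1.18, and the hypoxia list at 1.91, -1.76 and 0.48.

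The 20 genes that ATF6 and XBP1 induce for the endoplasmic reticulum, the other branches of the unfolded protein response, had 3 DEGs that rose and 0 that fell in Differentiated vs Undifferentiated, 2 and 9 in Lysfree vs Differentiated, and 3 and 2 in Lysfree vs Undifferentiated. Pdia4 at -2.15, Xbp1 at -1.94, Dnajb9 at -1.76 and Sdf2l1 at -1.72 led the falls in Lysfree vs Differentiated. The 10 mitochondrial chaperones and proteases had 5 and 0, 0 and 1, and 1 and 0 DEGs in the same order, and Hspd1, the chaperonin HSP60, was the 1 that fell without lysine, with -1.64. The 13 p53 targets had 1 and 2, 5 and 1, and 0 and 2, with Plk2 up by 2.96 and Btg2 at -2.71 in Lysfree vs Differentiated, but without Lysfree 1 only 2 DEGs rose there. Without that library the 3 rises of the ATF6 and XBP1 list in Lysfree vs Undifferentiated became 1. Over all genes tested, DEGs made up 21.8% in Differentiated vs Undifferentiated, 18.7% in Lysfree vs Differentiated and 14.3% in Lysfree vs Undifferentiated.

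The 19 other C/EBP, ATF, CREB and AP-1 factors, possible partners of ATF4 and CHOP, had 4 DEGs that rose and 0 that fell in Differentiated vs Undifferentiated, 1 and 6 in Lysfree vs Differentiated and 3 and 3 in Lysfree vs Undifferentiated. The shares over all genes tested were 21.8%, 18.7% and 14.3% in the same order. Cebpa, an adipogenic factor that CHOP inhibits, was at 164 ± 7.07 FPKM in Differentiated and 8.23 ± 1.85 in Lysfree, a change of -4.25 (SE 0.14, edgeR adjusted p = 5.7e-16). Fosl1 at -4.03, Fos at -3.83 and Fosb at -1.90 also fell. The 1 DEG that rose was Cebpd, at 1.30 (SE 0.15, edgeR adjusted p = 2.3e-07), a gene named here after its value was seen.

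Ddit4, Nupr1, Gdf15, Cebpg and Atf4 rose in Differentiated vs Undifferentiated and fell in Lysfree vs Differentiated. In the former comparison the first 4 rose at least 1.84-fold and Atf4 1.27-fold. They are set here beside lists of hypoxia and glucocorticoid targets. Of 12 hypoxia and HIF1 targets, 9 were DEGs that rose and 0 that fell in Differentiated vs Undifferentiated, 0 and 9 in Lysfree vs Differentiated and 1 and 1 (0 and 1 without Lysfree 1) in Lysfree vs Undifferentiated, led in Lysfree vs Differentiated by Car9 at -3.59, Ankrd37 at -2.97, Egln3 at -2.91 and Bnip3 at -2.79. Over all genes tested, 10.4% rose and 11.4% fell as DEGs, then 8.14% and 10.5%, and 5.52% and 8.76%, in that order of comparisons. Of 11 glucocorticoid targets, the DEGs that rose and fell were 7 and 1, 0 and 3 (0 and 4 without Lysfree 1), and 2 and 0 in the same order. By adjusted p alone, however, this list went both ways in Lysfree vs Differentiated. There 4 rose by less than 2-fold and 6 fell, against 19.7% and 18.8% of all genes. The 3 DEGs among those 6 were Glul at -3.96, Dusp1 at -1.46 and Zbtb16 at -1.32. Dexamethasone was at the same dose in both media. The part of these pathways, and of the adipocyte state, in the levels of Ddit4, Nupr1, Gdf15, Cebpg and Atf4 was not tested.

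Genes with a profile like those of Atf4 and Ddit3 were sought by the root mean square difference between log2 CPM profiles over the 9 libraries, each centred on its own mean. The 5 nearest to Atf4, of 12343 genes compared, were Mrgbp, Ptpmt1, Gsk3a, Cdk9 and Dnajb11, at differences from 0.0648 to 0.0757. The 5 nearest to Ddit3, of 11204, were 1810058I24Rik, Zfp408, Klhl21, Phc2 and Axin1, from 0.0855 to 0.106. None of the other 9 members was among the 5 for either gene. The 9 libraries share the groups and the deviation of Lysfree 1, which any such likeness includes.

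Some of the 10 genes share bases with a neighbour, and the strand setting of the count is not given in the sources used here, so reads of the shared part could have gone to either gene. The overlap was 68 bases of Ddit3 with Mars, 571 of Atf5 with Nup62 and 717 of Ppp1r15a with Tulp2, each on the opposite strand, and Cebpg spans 3 minor transcript records. Mars had 1416 to 3079 counts per library, Nup62 440 to 1046 and Tulp2 4 to 16. A further record with the name Ddit3 was at 0 counts in all libraries, and the values given are those of the other.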

How the data were processed

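Poly A RNA of 9 3T3-L1 libraries, 3 per group, was analysed. The authors mapped reads to mm10 with HISAT2 2.0.5, and per the labels featureCounts 1.5.0-p3 was among their tools. They deposited raw counts per gene, not normalized, which were the input of all tests, and FPKM of the same genes, which is normalized for gene length and library total and is used for levels. Groups were taken from the sample labels. Differential expression was tested for each pair of groups on its 6 libraries with edgeR 4.0.16 (glmQLFit, glmQLFTest, TMM) in R 4.3.3, leaving out genes at 0 in all 6, in place of the DESeq2 of the study's methods. DEGs had a Benjamini-Hochberg adjusted p under 0.05 and at least a 2-fold change. The SE is the size of the log2 fold change divided by the square root of F. No list was tested, and lists are described by counts and medians.

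All 10 members are named. Of each other list, up to 4 genes are named, those with the largest change among its DEGs in Lysfree vs Differentiated with a mean of at least 1 CPM, besides Eif2ak4, Eif2s1, Asns, Atf3, Fgf21 and Sesn2. Lists share some genes. The members and lists were chosen with earlier results of these data known. The marker lists of adipocytes, preadipocytes and fibroblasts, macrophages, endothelium and epithelium were written by hand, as were those of the pathways.

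The alternatives were DESeq2 1.42.0, RLE size factors, library sizes alone, all 9 libraries together, filterByExpr, a minimum of 10 counts per library, a replicate block, no fold threshold, a test against 2-fold (glmTreat), limma 3.58.1 on log2(FPKM + 1) and log2(FPKM + 0.1), and leaving out each library. Counts of DEGs per list without Lysfree 1 were added after the libraries had been seen. The tests were checked on simulated counts. Coordinates are those of the deposited tables, and all 10 members have the same start and end in GENCODE vM21. Upstream sequences came from RefSeq (GRCm38.p6), where all 10 members were found.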

Additional observations from a re-analysis of the deposited data

How the results depend on the processing

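Apart from the changes of fold threshold, all 150 values of the 10 genes under the alternatives kept their direction and their side of an adjusted p of 0.05 in Differentiated vs Undifferentiated, as did 135 of 150 in Lysfree vs Differentiated and 136 of 150 in Lysfree vs Undifferentiated. DESeq2 called the same numbers of the 10 genes as edgeR (4, 2 and 3, in that order of comparisons). With no fold threshold these became 10, 8 and 7, and the DEGs over all genes 11260, 9280 and 8428. In Differentiated vs Undifferentiated 3 genes were called with glmTreat and with limma on log2(FPKM + 1), where Gdf15 lost its DEG call (glmTreat adjusted p = 0.37, limma log2 fold change 0.92). In Lysfree vs Differentiated 1 gene was called with library sizes alone and 0 by glmTreat, against 2. The DEGs fell from 5329, 4507 and 3426 to 3488, 2891 and 2244 with at least 10 counts in every library, where fewer genes were tested, to 2726, 2198 and 1474 with limma on log2(FPKM + 1), and in Lysfree vs Differentiated and Lysfree vs Undifferentiated to 2657 and 1596 with glmTreat. The replicate numbers did not pair the libraries (correlations of deviations from -0.13 to 0.16), and with a replicate block the DEGs were 4837, 4173 and 3179 and the members called 4, 2 and 3. The size of the adjusted p depended on the genes that entered the fit. In Differentiated vs Undifferentiated, filterByExpr moved the edgeR adjusted p of Atf5 from 1.0e-72 to 2.1e-09. That of Chac1 went from 4.1e-103 to 5.0e-11.

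The log2 fold change of Atf5 in Lysfree vs Differentiated, 0.01, turned to -0.019 with DESeq2 and with RLE factors, -0.026 with filterByExpr, -0.028 with the replicate block, -0.046 with at least 10 counts, and -0.094 and -0.095 with limma on log2(FPKM + 1) and log2(FPKM + 0.1), and ranged from -0.12 to 0.20 when a library was left out. In Lysfree vs Undifferentiated, Atf4 turned from -0.05 to 0.069 without Lysfree 1 (range -0.13 to 0.069 when a library was left out), and Cebpg from 0.054 to -0.00475 with at least 10 counts and to -0.054 without Lysfree 1, with a range from -0.054 to 0.103 when a library was left out. Atf4 in Lysfree vs Differentiated lost its call with limma on log2(FPKM + 1) (adjusted p = 0.051), and Gdf15 there without Differentiated 2 (edgeR adjusted p = 0.060). In Lysfree vs Undifferentiated, Nupr1 and Gdf15 each lost theirs under 5 alternatives, with adjusted p up to 0.27 and 0.11. Ddit4 was a DEG that fell in Lysfree vs Differentiated without Lysfree 2 or without Lysfree 3 (-1.06 and -1.05) and with limma on log2(FPKM + 1) and log2(FPKM + 0.1) (-1.03 and -1.04), and in Lysfree vs Undifferentiated it was no DEG with glmTreat (adjusted p = 0.31). Trib3 passed the test in Lysfree vs Differentiated with library sizes alone (edgeR adjusted p = 0.032). The cause of these shifts was not tested. The counts of Gdf15, Slc7a3 and other scarce genes limit their precision, and 3 libraries per group from a single line limit all of it.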
